A study of Arabidopsis thaliana with 12 samples.

Results

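The zinc finger homeodomain genes HB21, HB22, HB23, HB25, HB27, HB30, HB31, HB32, HB33 and HB34 of Arabidopsis thaliana were followed through peak lists of trimethylated lysine 27 of histone H3 (H3K27me3) and of the repressors VAL1 and VAL2. They are 10 of 27444 protein-coding genes on the 5 nuclear chromosomes and were matched by TAIR10 locus. The annotation names each of them a homeobox protein of the same number. Some of these symbols are also in use for homeodomain leucine zipper genes, which are not meant here. The genes were selected on H3K27me3 peaks and VAL summits of these same lists, so those values are given as a description and carry no test.

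Chromatin immunoprecipitation and sequencing (ChIP-seq) was done on Col-0 seedlings 14 days old, stratified for 3 days at 4 °C and grown on sucrose plates under 16 h of light and 8 h of dark at 22 °C. H3K27me3 was precipitated in 2 replicates of the double mutant val1val2 and in 2 replicates of wild type. The tagged proteins were precipitated with a GFP antibody from VAL1-GFP in val1, in 2 replicates, and from VAL2-GFP in val2, of which 1 replicate was analysed here. Each of these 4 lines had 1 input, used here in no comparison of its own, and the labels give neither the mutant alleles nor the promoters of the GFP fusions. All samples were whole seedlings, so a mark in few cells and a weak mark in many cells cannot be told apart. The smallest two-sided p that an exact permutation of these 4 libraries can give is 0.333, so differences between genotypes are set beside the spread between replicates.

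Zinc finger homeodomain proteins are plant transcription factors that pair through an amino-terminal zinc finger domain and bind DNA through a homeodomain. The mini zinc finger proteins MIF1, MIF2 and MIF3 keep only the zinc finger domain, and MIF1 is known to pair with family members and to hold them back. H3K27me3 is laid down by Polycomb repressive complex 2 and marks genes kept silent in a tissue. VAL1 and VAL2 carry a B3 domain that binds the RY motif, whose core is TGCATG or, on the other strand, CATGCA, and are known to bring Polycomb complexes to seed and flowering genes.

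In val1val2, 9 of the 10 genes were marked in both libraries, against 6 of the 10 in both wild-type libraries. A gene counted as marked in a library when H3K27me3 peaks covered at least 20% of it from start to end. Over all protein-coding genes the share marked was 30.4% in val1val2 and 25.6% in the wild type. HB30, HB32 and HB34 were called gained, which means marked in both val1val2 libraries and in neither wild-type library, as were 6.42% of all genes. HB27 was called lost, as were 2.03% of all genes. The val1val2 lists were longer, with 9925 and 10024 peaks, against 8324 and 8325 in the wild-type lists, and with the 8324 strongest peaks of each list the gained count was also 3, against 5.06% of all genes, and the lost count 1, against 2.78%. Among peaks with a −log10 q of at least 10 the gained count was 6 of 10, against 3.29% of all genes, and the lost count 0, against 2.99%. HB32 was then not among the gained, whereas HB23, HB25, HB31 and HB33 were. The latter were marked in the wild type too, by peaks of a −log10 q below 10. At HB25 neither cover nor fold enrichment differed between genotypes beyond the replicates. Cover was higher in both val1val2 libraries than in both wild-type libraries for 6 of the 10 genes, against 16.6% of all genes, and lower for 2 of the 10, against 8.4% of all genes. Since these same values chose the genes, nothing is read from the distance between the counts and those shares.

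**Figure D1:**
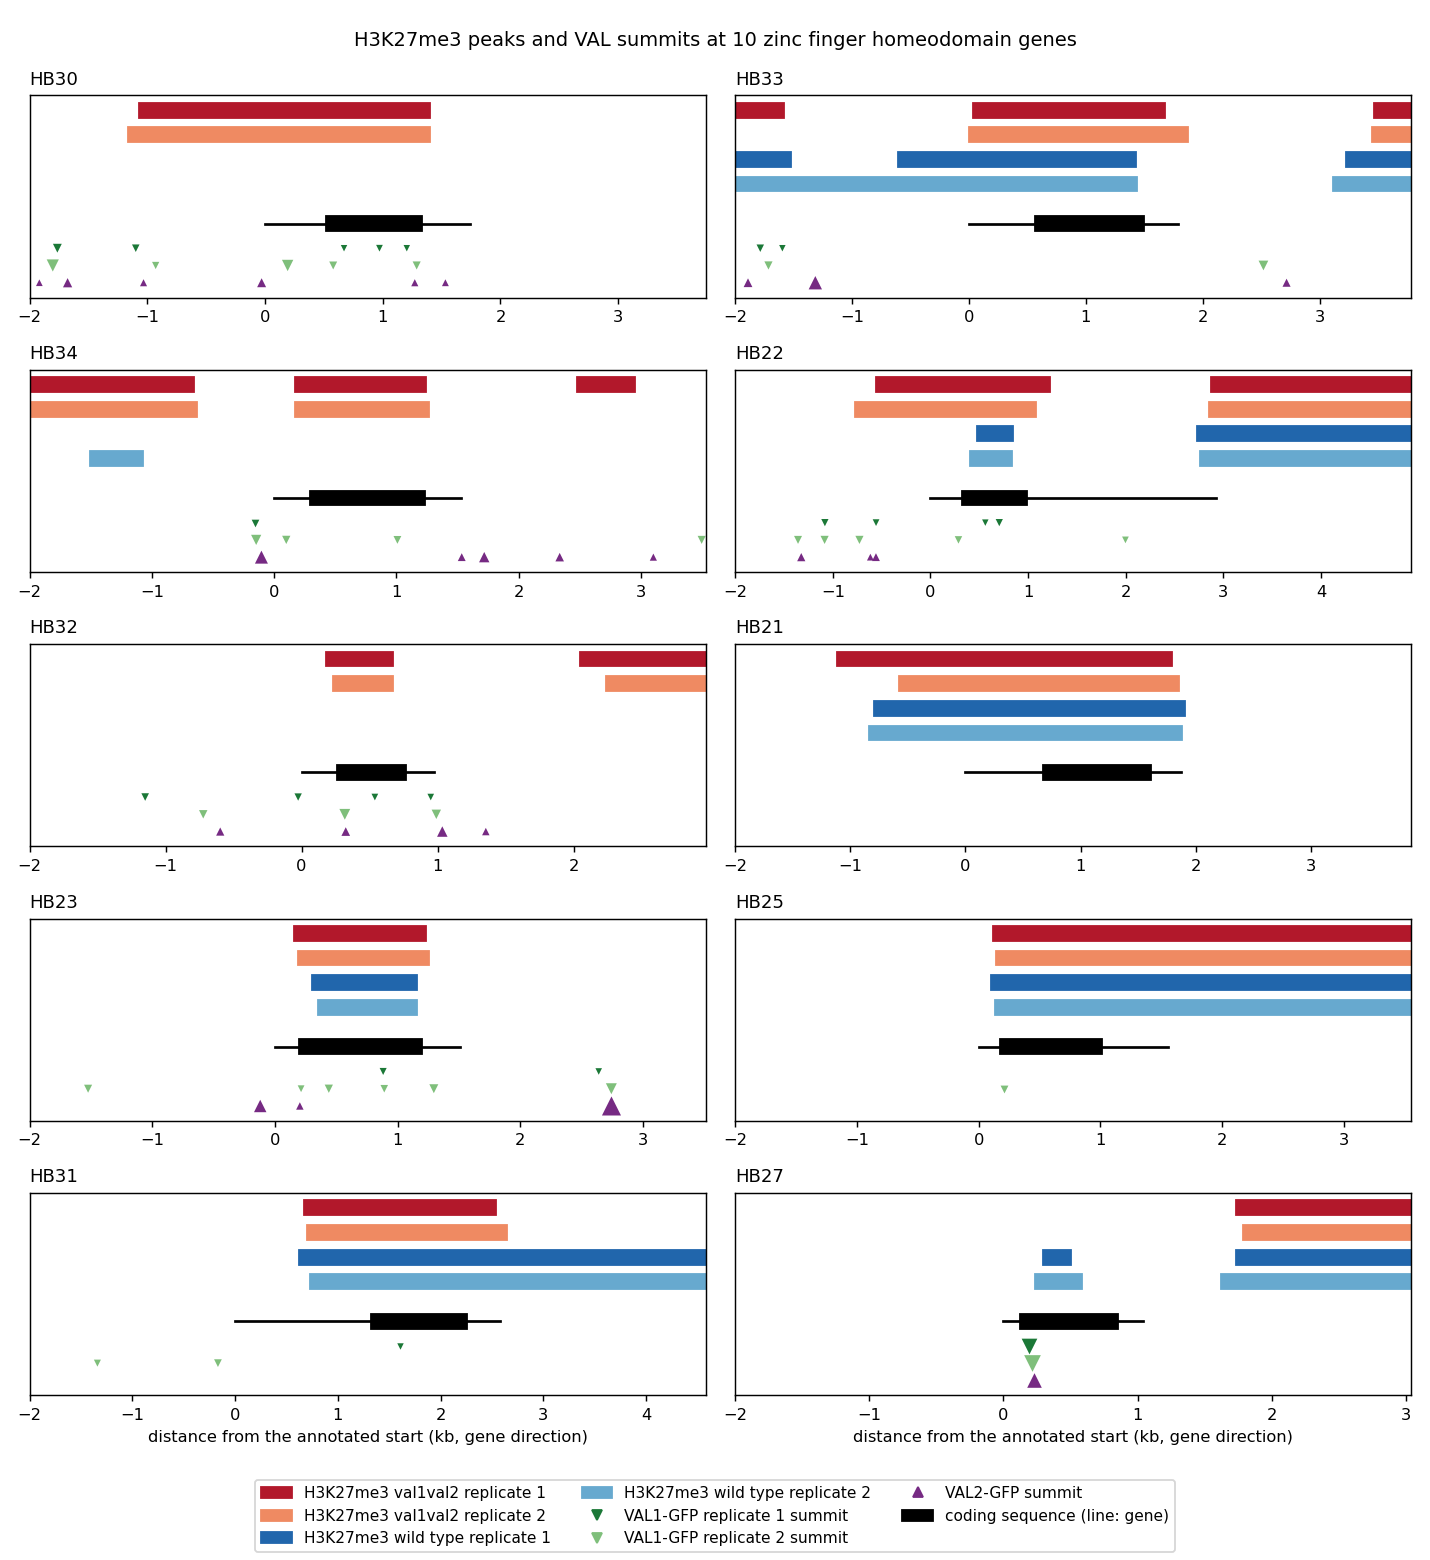
H3K27me3 peaks (bars, 1 row per library, val1val2 in red tones above wild type in blue tones), gene and coding sequence (black), and summits of VAL1-GFP and VAL2-GFP (triangles, larger for a higher −log10 q) at each gene, on the distance from the annotated start in kb. HB30, HB34 and HB32 have bars over the gene in the val1val2 rows only, and HB27 in the wild-type rows only.

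HB30 (AT5G15210, TAIR10 chr5:4937465-4939207, minus strand, a single exon) had the highest fold enrichment of the 10 genes in val1val2 replicate 1, and in replicate 2 that of HB23 was higher. Its cover was 80.4% and 80.7% in the val1val2 libraries and 0% in both wild-type libraries. The peak over its coding sequence had a fold enrichment of 4.62 and 3.52 in val1val2, with a −log10 q of 41.1 and 30.5. These are the authors' values per peak, taken as a ratio over the local background that the caller estimated. They were higher than those of 99.3% and 95.4% of all peaks in the same lists. The val1val2 libraries differ from one another here more than at the other genes, but neither wild-type library had a peak nearer than 5436 bp to the gene.

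The val1val2 peak at HB30 was 2470 and 2566 bp long. It covered the whole coding sequence and ran on by 1586 and 1678 bp on the 5′ side and by 68 and 72 bp on the 3′ side, so that it took in the 5′ untranslated region and the start of the upstream sequence. The strongest VAL summits near HB30 lay upstream of that peak. VAL1-GFP had summits 1764 bp upstream of the start at a −log10 q of 2.40 in replicate 1 and 1803 bp upstream at 6.66 in replicate 2, and VAL2-GFP had one 1677 bp upstream at 2.82. The replicate 2 summit was nearer to the start of AT5G15220, annotated as a ribosomal protein L27 gene, than to that of HB30. Within HB30, VAL1-GFP replicate 2 had a summit in the 5′ untranslated region at 5.52, without a summit of replicate 1 beside it, and VAL2-GFP had one 29 bp upstream of the start at 2.54.

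An RY core lay among the upstream summits, between 41.5 and 80.5 bp from them when counted to its centre. It is shown here, at TAIR10 chr5:4940900-4940959, because it is the one core within 100 bp of a summit at HB30. It is written 5′ to 3′ on the strand of the gene, with the core in capitals, as are all sequences given here.
HB30 upstream: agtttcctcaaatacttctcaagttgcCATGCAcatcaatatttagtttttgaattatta

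HB34 (AT3G28920, chr3:10940305-10941833, minus strand, a single exon) was covered over 69.8% and 71.4% in val1val2 and over 0% in both wild-type libraries. The fold enrichment of its peak was 2.84 and 3.01 in val1val2, with a −log10 q of 14.4 and 17.7. The val1val2 replicates differed little here. The peak was 1067 and 1092 bp long and followed the coding sequence, ending 125 and 123 bp beyond it on the 5′ side and 3 and 30 bp beyond it on the 3′ side. A separate val1val2 peak of 1478 and 1562 bp lay upstream at a fold enrichment of 1.93 and 1.90, and 1 of the wild-type libraries held a weak peak of 435 bp within that interval at a −log10 q of 0.536.

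The strongest summit of each VAL list at HB34 lay just upstream of its start, in the gap between the gene's own val1val2 peak and the upstream one. VAL1-GFP had summits 159 bp upstream at a −log10 q of 1.20 in replicate 1 and 147 bp upstream at 3.98 in replicate 2. VAL2-GFP had a summit 104 bp upstream at 7.93. These 3 summits lay within 76.5 bp of the centre of 1 RY core, shown at chr3:10941984-10942043 for that reason. Other summits at HB34 lay away from that core. VAL2-GFP had 4 beyond the 3′ end of the gene, the strongest of them 1718 bp from the start at a −log10 q of 4.19 and without a core within 100 bp, and one 2335 bp from the start at 2.10 beside another core. VAL1-GFP replicate 2 had further summits in the 5′ untranslated region, in the coding sequence and downstream, each at a −log10 q below 2.
HB34 upstream: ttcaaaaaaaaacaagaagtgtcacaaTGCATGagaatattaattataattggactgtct

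HB32 (AT1G14687, chr1:5047782-5048753, plus strand, a single exon) is the shortest of the 10 genes, and its val1val2 peak was also short. Cover was 50.6% and 45.3% in val1val2 and 0% in both wild-type libraries. The val1val2 peaks of 492 and 440 bp had a fold enrichment of 2.10 and 2.11 and a −log10 q of 4.85 and 5.27. They covered 80.1% and 80.5% of the coding sequence and stopped 101 and 99 bp before its end. The nearest wild-type peak lay 9673 and 9564 bp away. A separate peak of 1722 and 1572 bp lay downstream, over AT1G14688, also in val1val2 only. Its fold enrichment was 2.15 and 2.06 and its −log10 q 5.42 and 5.07. HB32 had the lowest cover, fold enrichment and −log10 q of the 3 gained genes.

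VAL1-GFP replicate 2 and VAL2-GFP had summits inside the coding sequence of HB32, 318 bp downstream of the start at a −log10 q of 4.76 and 325 bp downstream at 2.20. VAL1-GFP replicate 1 had its one coding summit 539 bp downstream of the start at 0.387. Around the 3′ end all 3 lists had a summit, VAL1-GFP replicate 1 at 950 bp from the start with a −log10 q of 0.293, replicate 2 at 991 bp with 3.02, and VAL2-GFP at 1035 bp with 4.35, its strongest at HB32. No RY core lay within 100 bp of those. Upstream summits were at 1.95 or less. The coding summits of VAL1-GFP replicate 2 and of VAL2-GFP lay 24.5 and 31.5 bp from the only RY core found in the gene or within 2 kb of it. That core is shown at chr1:5048046-5048105, a window that begins with the first coding base.
HB32 coding: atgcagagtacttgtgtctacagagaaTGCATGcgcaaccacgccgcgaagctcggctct

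**Figure D2:**
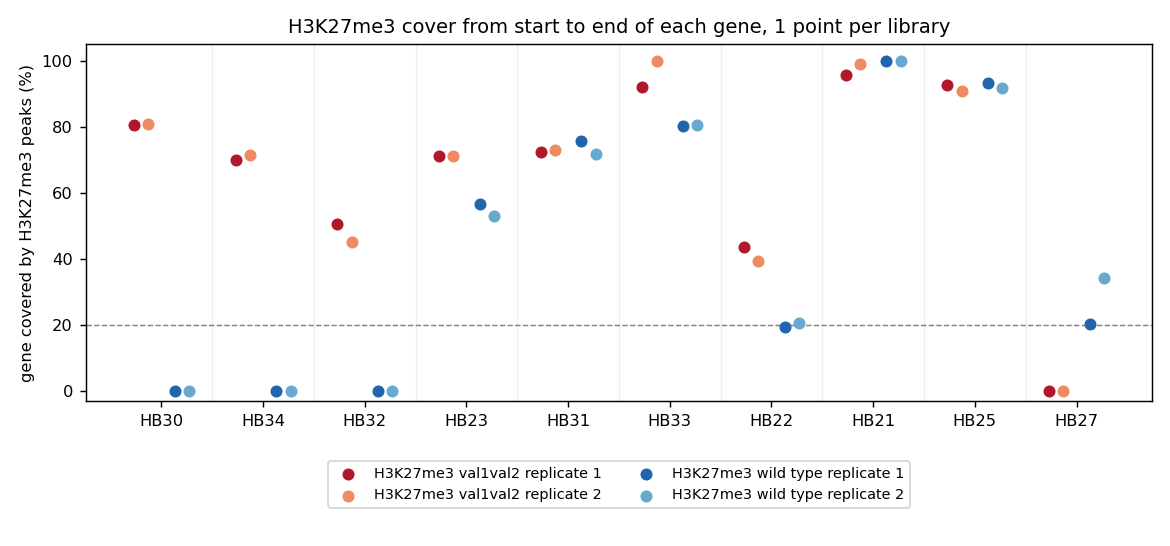
Percentage of each gene covered by H3K27me3 peaks from start to end, 1 point per library, val1val2 left of wild type, with the 20% threshold dashed. HB30, HB34 and HB32 lie between 45.3% and 80.7% in val1val2 and at 0% in the wild type, and HB27 lies at 0% in val1val2. Both wild-type points of HB22 lie next to the threshold, as does that of HB27 in replicate 1, with replicate 2 at 34.1%.

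HB23, HB31 and HB33 were marked in both genotypes and had peaks of a higher fold enrichment in val1val2. HB23 (AT5G39760, chr5:15911350-15912860, plus strand) had a fold enrichment of 3.56 and 3.78 in val1val2, against 2.39 and 2.33 in the wild type. HB31 (AT1G14440, chr1:4938754-4941332, minus strand) had 3.29 and 3.52 in val1val2, against 1.94 and 2.13 in the wild type. HB33 (AT1G75240, chr1:28241011-28242795, plus strand), which is known to act in abscisic acid responses and as a partner of MIF1, had 2.45 and 2.50 in val1val2, against 1.62 and 1.69 in the wild type. In each of the 3 genes the lower val1val2 value lay above the higher wild-type value by more than the gap between replicates.

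On the log2 scale the mean of the val1val2 libraries minus that of the wild-type libraries was 0.64 for HB23, 0.74 for HB31 and 0.58 for HB33. Among the 6771 genes with a peak over the coding sequence in all 4 libraries, 97.2%, 98.1% and 96.1% had a lower difference. The median of these genes was 0.003, and their central 90% ran between −0.54 and 0.52. Fold enrichment was higher in both val1val2 libraries for 4 of the 6 zinc finger homeodomain genes that could be compared, against 41.5% of these genes, and lower for 1, HB21, against 39.6%. The remaining 4 of the 10 were compared in no such way: HB27, HB30, HB32 and HB34 lacked a peak in 1 of the genotypes.

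**Figure D3:**
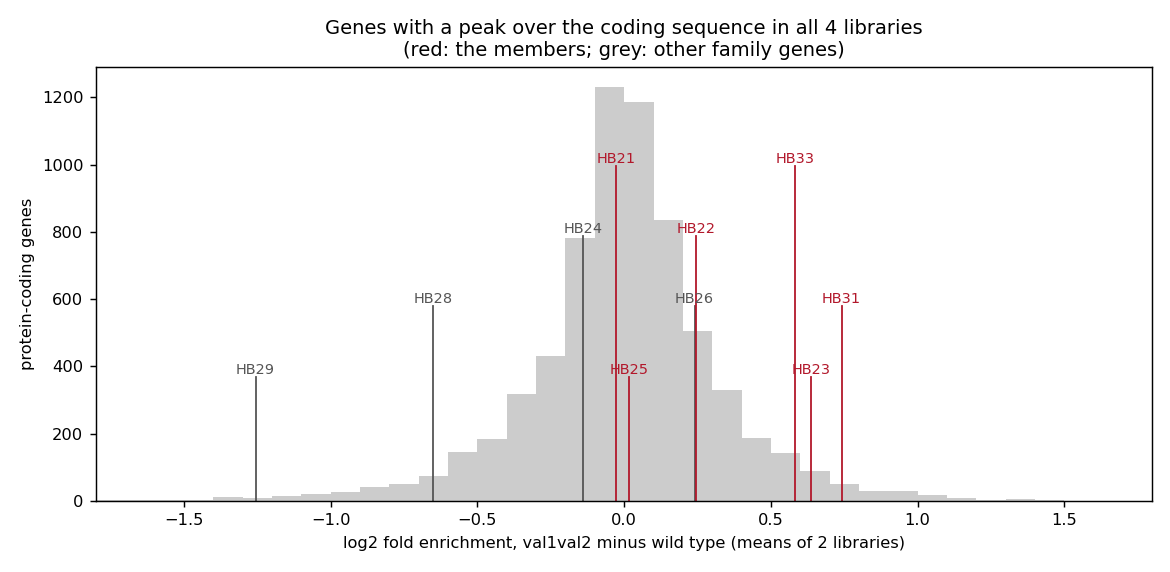
Histogram of the difference in log2 fold enrichment, val1val2 minus wild type (means of 2 libraries), over 6771 protein-coding genes with a coding peak in all 4 libraries; the y axis counts genes. Red lines mark the 6 comparable genes of the 10, with HB31, HB23 and HB33 between 0.58 and 0.74, and grey lines other family genes, with HB29 at −1.26 and HB28 at −0.65.

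The change in fold enrichment came with different changes in width. The H3K27me3 lists give fold enrichment and pileup per peak and no summit position, so these values may depend on peak length. The part of peak length in the differences at HB23, HB31 and HB33 was not tested. The peak at HB23 was 1077 and 1075 bp long in val1val2 and 857 and 802 bp in the wild type. In val1val2 it ended between 8 and 62 bp beyond the coding sequence on both sides, and in the wild type between 39 and 160 bp inside it. The peak at HB31 was shorter in val1val2, at 1868 and 1950 bp, than in the wild type, at 4115 and 4209 bp. The stretch absent in val1val2 lay on the 3′ side, where the peak ran 278 and 390 bp beyond the coding sequence in val1val2, against 2483 and 2684 bp in the wild type, while the 5′ edges differed by little more than 100 bp among the 4 libraries. At HB33 the val1val2 peaks ran 531 and 568 bp beyond the coding sequence on the 5′ side, against 1174 and 3278 bp in the wild type. On the 3′ side of HB33 they ran 180 and 380 bp beyond it, whereas the wild-type peaks stopped 64 and 58 bp before its end. HB33 thus had a narrower peak upstream and a fuller cover of the coding sequence in val1val2. Its wild-type replicates disagreed on the upstream edge, but replicate 1 had a separate upstream peak of 1664 bp. The longer peak of replicate 2 took in part of that stretch. In val1val2 replicate 1 a weak separate peak of 718 bp also lay upstream, at a fold enrichment of 1.27.

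The pileup, the read coverage over a peak, was also higher in val1val2 at these genes. It was 75.1 and 83.1 at HB23 in val1val2, against 47.1 and 49.8 in the wild type. At HB31 it was 72.8 and 81.4 in val1val2, against 38.2 and 46.6 in the wild type. At HB33 it was 108 and 114 in val1val2, against 54.1 and 51.3 in the wild type. Pileup is not known to be scaled for depth, so it is less comparable between libraries than the fold enrichment. It was higher in both val1val2 libraries at all 6 comparable genes, against 38.1% of the 6771 genes.

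**Figure D4:**
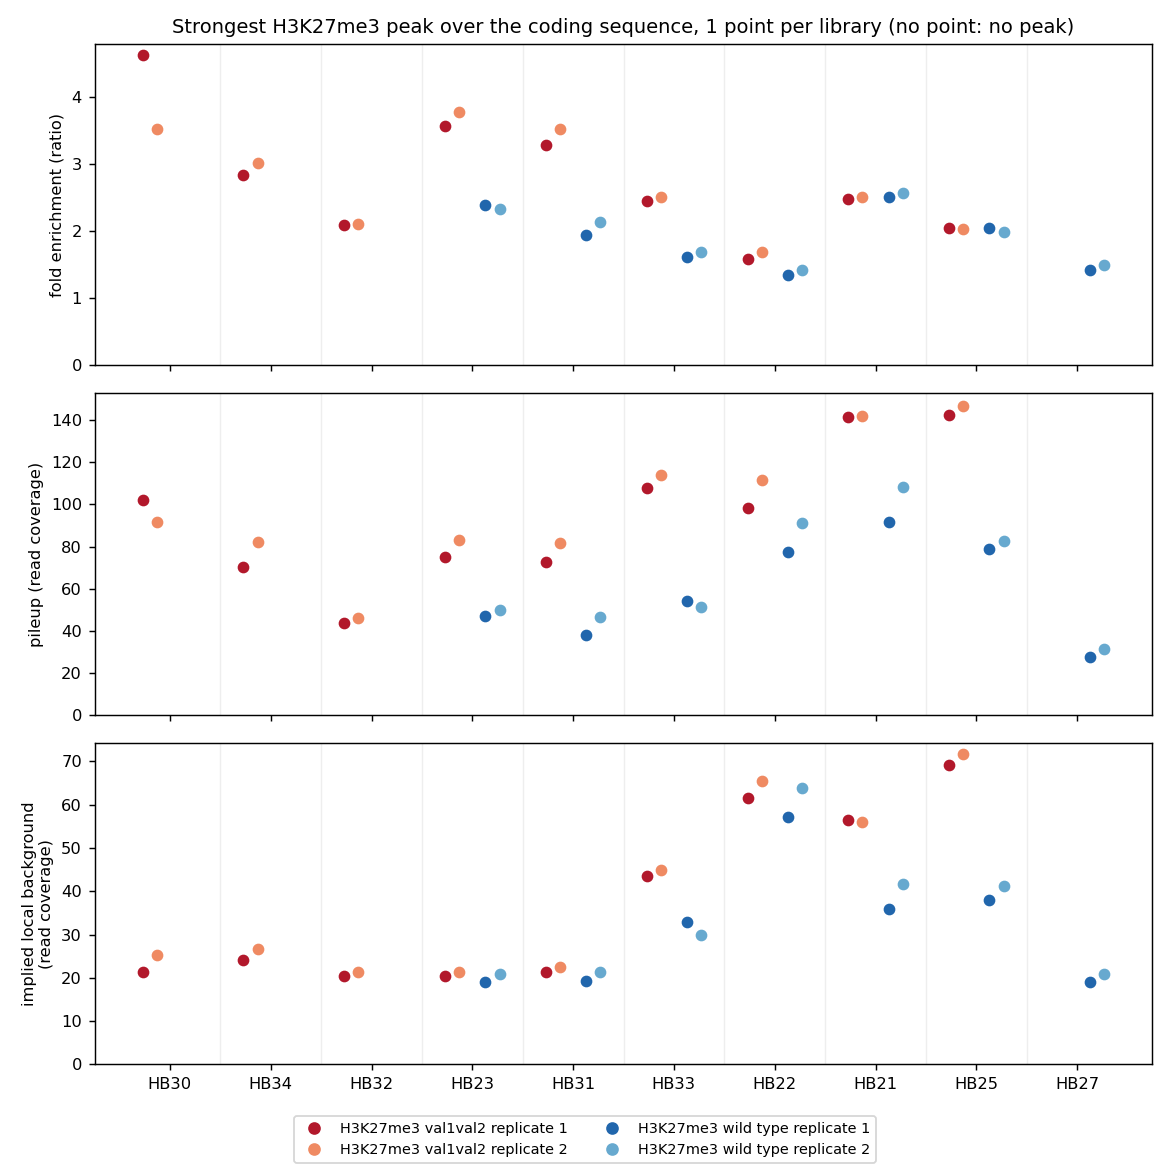
Fold enrichment, pileup and the local background implied by both, (pileup + 1) / fold − 1, of the strongest H3K27me3 peak over the coding sequence of each gene, 1 point per library, val1val2 left of wild type; no point means no peak. At HB23 and HB31 pileup differs between genotypes while the implied background stays between 19.1 and 22.4. That is close to the 5th percentile over all peaks of each list, which lies between 19.1 and 21.3. At HB21 and HB25 pileup and implied background are both higher in val1val2.

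HB23 and HB34 had the most similar coding sequences of the 10, with 80.0% identical bases where they aligned, and HB23 and HB30 shared 73.8%. Of these relatives, HB23 was marked in both genotypes, and HB34 and HB30 in val1val2 only. Both HB23 and HB34 carry an RY core at the same place of the coding sequence, in windows with 49 of 60 identical bases. The windows, at chr5:15912159-15912218 for HB23 and chr3:10940885-10940944 for HB34, are given to show the shared stretch.
HB23 coding: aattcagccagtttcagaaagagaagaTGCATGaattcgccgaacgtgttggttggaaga
HB34 coding: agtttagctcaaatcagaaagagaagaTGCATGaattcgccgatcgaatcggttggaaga

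Weak VAL1-GFP summits lay near the coding core of HB23, at a −log10 q of 0.659 in replicate 1 and 1.09 in replicate 2, and near that of HB34 at 1.34 in replicate 2. The strongest summit at HB23 was one of VAL2-GFP 2743 bp downstream of its start, beyond the gene's end, with a fold enrichment of 4.30 and a −log10 q of 19.8. VAL1-GFP replicate 2 had a summit 1 bp from it at 4.96, and replicate 1 one 2639 bp downstream of the start at 0.236. No RY core lay within 100 bp of the VAL2-GFP summit, and no H3K27me3 peak of either genotype covered it. VAL2-GFP had another summit 120 bp upstream of the start of HB23, at 7.09.

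HB31 had no VAL2-GFP summit within 2 kb, and its VAL1-GFP summits were weak, at a −log10 q of 0.159 in replicate 1 and of 1.26 and 0.627 in replicate 2. At HB33 the VAL summits lay upstream and downstream of the gene and none inside it. The strongest was one of VAL2-GFP 1314 bp upstream of the start at 8.54, and VAL1-GFP had upstream summits between 1596 and 1785 bp from the start, at 1.72 or less. The downstream summits were nearer to the start of RL6, a RADIALIS-like gene, than to that of HB33. HB23, HB31 and HB33 had no VAL1-GFP summit of a −log10 q of at least 2 in both lists, and 27.7% of all genes had one. Replicate 2 alone reached that value, at HB23 and, with 3.39 downstream, at HB33. Any link between these summits and the difference in strength was not tested.

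HB22 (AT4G24660, chr4:12722912-12725835, minus strand) lay at the threshold in the wild type. Its cover was 43.5% and 39.3% in val1val2, against 19.4% and 20.6% in the wild type. The peak over its coding sequence was 1782 and 1850 bp long in val1val2 and 369 and 436 bp in the wild type, and it covered the whole coding sequence in val1val2, against 55.7% and 65.8% in the wild type. The fold enrichment was 1.59 and 1.69 in val1val2, against 1.35 and 1.42 in the wild type, so the groups did not overlap, but the log2 difference of 0.24 was higher than that of only 83.1% of the compared genes. Part of its cover came from a peak of more than 5 kb that reached the annotated 3′ end of HB22 from IPT4, a gene of cytokinin synthesis, and that also covered APPB1 and AT4G24644. That peak had a fold enrichment of 1.78 and 1.81 in val1val2, against 1.79 and 1.70 in the wild type. VAL summits at HB22 all had a −log10 q of 1.74 or less.

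HB21 (AT2G02540, chr2:683625-685496, plus strand) and HB25 (AT5G65410, chr5:26136002-26137554, plus strand) carried full marks in both genotypes. HB25 is known to promote a gibberellin synthesis gene and seed longevity. Cover of HB21 was 95.7% and 99.1% in val1val2, against 100% in both wild-type libraries, and that of HB25 was 92.6% and 90.7% in val1val2, against 93.3% and 91.6% in the wild type. Both coding sequences were covered in full in all 4 libraries.

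The fold enrichment of HB21 was 2.48 and 2.51 in val1val2, against 2.52 and 2.56 in the wild type. That of HB25 was 2.05 and 2.03 in val1val2, against 2.05 and 1.99 in the wild type. These differences, −0.03 and 0.02 on the log2 scale, were close to the median of all compared genes. Pileup gave another picture, with 141 and 142 at HB21 in val1val2, against 91.6 and 108 in the wild type, and 142 and 147 at HB25 in val1val2, against 79.0 and 82.8 in the wild type. The local background implied by pileup and fold enrichment was higher too. It was 56.4 and 56.0 at HB21 in val1val2, against 35.8 and 41.6 in the wild type, and 69.1 and 71.7 at HB25 in val1val2, against 38.0 and 41.2 in the wild type. The part of that background in the equal fold enrichments was not tested.

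HB21 had no VAL summit in the gene or within 2 kb, and HB25 had 1, from VAL1-GFP replicate 2, at a −log10 q of 1.36. HB21 nevertheless holds an RY core in its coding sequence, in a window with 52 of 60 bases identical to one of HB31, the gene with the most similar coding sequence (79.6% of aligned bases). The windows are at chr2:684554-684613 for HB21 and chr1:4939694-4939753 for HB31, and are given to show the shared stretch. The VAL1-GFP replicate 1 summit of HB31 lay 7.5 bp from the centre of its core. Its −log10 q of 0.159 was close to the lowest of that list, 0.158, and the nearest replicate 2 summit lay 1776 bp from the core.
HB21 coding: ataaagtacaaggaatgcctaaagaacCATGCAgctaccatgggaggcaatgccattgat
HB31 coding: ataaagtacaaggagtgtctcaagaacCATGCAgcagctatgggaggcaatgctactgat

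HB27 (AT5G42780, chr5:17154718-17155757, plus strand, a single exon) was the one gene of the 10 called lost. It had no peak in either val1val2 library, and its wild-type cover was 20.2% and 34.1%. The wild-type peaks were short, 210 and 355 bp, and weak, with a fold enrichment of 1.42 and 1.49 and a −log10 q of 0.653 and 1.04. A peak beyond the 3′ end of HB27, over AT5G42785, was present in all 4 libraries at a fold enrichment of 1.92 and 1.96 in val1val2, against 1.95 and 2.07 in the wild type. The call rests on wild-type peaks that a q of 0.01, a −log10 q of 2, would remove.

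The VAL summits at HB27 were the strongest of VAL1-GFP at any of the 10 genes and the only ones with a −log10 q of at least 10 in both VAL1 lists. VAL1-GFP had a summit 187 bp downstream of the start in replicate 1, with a fold enrichment of 3.38 and a −log10 q of 12.7, and 214 bp downstream in replicate 2, with 4.70 and 14.7. VAL2-GFP had a summit 230 bp downstream, with 3.34 and 10.7. No other VAL summit was listed in the gene or within 2 kb. All 3 summits lay in the coding sequence around 1 RY core, whose centre was 38.5, 11.5 and 4.5 bp from them in that order. It is shown at chr5:17154914-17154973 because it stands at the strongest VAL1-GFP summits of the 10 genes. The short wild-type H3K27me3 peaks began 7 bp or more downstream of the core's last base.
HB27 coding: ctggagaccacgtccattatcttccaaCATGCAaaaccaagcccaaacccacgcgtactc

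**Figure D5:**
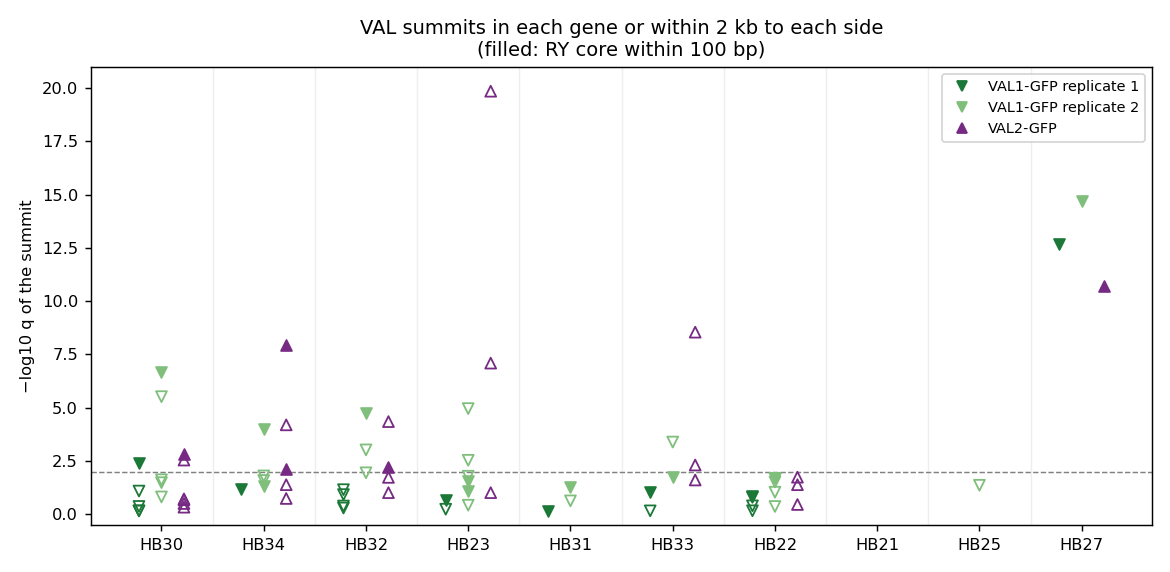
The −log10 q of every VAL1-GFP and VAL2-GFP summit in each gene or within 2 kb to each side, with a dashed line at 2 and filled symbols where an RY core lies within 100 bp. HB27 has 1 summit per list, all above 10 and all filled, HB21 has none, and the highest point, a VAL2-GFP summit of HB23 at 19.8, is open.

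A VAL1-GFP summit in both lists, in the gene or within 2 kb, was found at 8 of the 10 genes, against 58.4% of all genes, and a VAL2-GFP summit at 7 of the 10, against 70.8%. Both were present at 7 of the 10, against 51.3%. The VAL1-GFP count does not ask for the same site in both lists. At HB31 the summit of replicate 1 lay in the coding sequence and those of replicate 2 upstream. At a −log10 q of at least 2 the count for VAL1-GFP was 2 of 10, HB27 and HB30, against 27.7% of all genes, and for VAL2-GFP 6 of 10, against 51.2%. At a −log10 q of at least 10 it was 1 of 10 for VAL1-GFP, HB27, against 6.66%, and 2 of 10 for VAL2-GFP, HB23 and HB27, against 13.1%. These counts are a description, since VAL summits were among the values that chose the genes, and the lists reach down to weak summits.

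An RY core lay within 100 bp of 17 of the 49 VAL1-GFP summits at these genes. The share was 35.0% in replicate 1, against 31.3% of all summits in that list, and 34.5% in replicate 2, against 24.7%. Of the 25 VAL2-GFP summits, 5 had a core, against 18.5% of all in the list. Summits at 1 gene share their surroundings and are not independent. In the promoter window between 250 bp before and 50 bp after the start, HB25, HB31 and HB34 held a core, 3 of 10, against 9.76% of all genes. Of these, HB34 alone had summits of all 3 lists within 100 bp of that core. Over the gene and 2 kb to each side, the number of cores ran between 1 at HB32 and 8 at HB31, counting palindromic matches on both strands.

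The coding sequence was covered in full in both val1val2 libraries at 8 of the 10 genes, against 13.2% of all genes, and in both wild-type libraries at 3 of the 10, HB21, HB25 and HB31, against 11.6%. HB32 and HB27 were the exceptions in val1val2. Of the 10 genes 7 have a single exon.

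The 4 family genes outside the set, HB24, HB26, HB28 and HB29 (also named ZFHD1, a drought-responsive activator), were marked in both genotypes, and none was called gained or lost. HB29 (AT1G69600) had a fold enrichment of 1.46 and 1.52 in val1val2, against 3.56 and 3.57 in the wild type, and a cover of 36.4% and 45.5% in val1val2, against 81.2% and 84.8% in the wild type. HB28 (AT3G50890) had 1.94 and 1.69 in val1val2, against 2.78 and 2.92 in the wild type. The log2 differences of −1.26 and −0.65 were opposite to those of HB23, HB31 and HB33, and only 0.369% and 3.19% of compared genes had a lower one. HB24 and HB26 differed by −0.14 and 0.24. The family therefore held genes with a lower and genes with a higher fold enrichment in val1val2.

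HB29 had strong VAL summits upstream of its start. VAL1-GFP had one 297 bp upstream at a −log10 q of 9.80 in replicate 1 and one 341 bp upstream at 30.6 in replicate 2, and VAL2-GFP one 363 bp upstream at 10.5. An RY core lay within 47.5 bp of all of them, and is shown at chr1:26181811-26181870 for that reason.
HB29 upstream: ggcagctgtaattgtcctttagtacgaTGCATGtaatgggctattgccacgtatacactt

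HB26 also had summits of all 3 lists upstream, at a −log10 q of 4.15 and 13.7 for VAL1-GFP and 4.35 for VAL2-GFP, each within 42.5 bp of an RY core, and its fold enrichment was 1.93 and 1.98 in val1val2, against 1.65 and 1.66 in the wild type. Its pileup went the other way, at 92.9 and 98.1 in val1val2, against 151 and 164 in the wild type. The peak over HB26 was 3970 and 3462 bp long in val1val2, against 5593 and 5598 bp in the wild type, where it reached FLA12. Any link between the summits at HB29 or HB26 and these differences was not tested. The mini zinc finger genes MIF1, MIF2 and MIF3 were marked in all 4 libraries. MIF2 and MIF3 were covered over 100% in each, and MIF1 over 50.7% and 55.4% in val1val2, against 73.6% and 71.5% in the wild type.

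The genes most like HB30 were sought by cover and log2 fold enrichment in the 4 libraries, each scaled to unit SD, by Euclidean distance. They were AT1G75190, of unknown function, at a distance of 0.467, AT4G17180, annotated as an O-glycosyl hydrolase, at 0.513, and GID1B (AT3G63010), a gibberellin receptor gene, at 0.667. GID1B was covered over 88.6% and 89.5% in val1val2 and over 0% in both wild-type libraries, with a fold enrichment of 3.71 and 3.61 in val1val2. All 3 had summits of VAL1-GFP in both lists and of VAL2-GFP within 2 kb, as did 51.3% of all genes.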

How the data were processed

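H3K27me3 peak lists of 4 libraries, 2 VAL1-GFP lists and 1 VAL2-GFP list were analysed, of 12 samples. Per the submitters' processing notes, the authors used MACS2 and TAIR10; TopHat2 2.1.1, Cufflinks 2.2.1 and Cuffdiff are also named. The sources used here do not give the MACS2 version, aligner, control or options. In the deposited lists, pileup is a read coverage signal and fold enrichment is a ratio over local background. The deposited −log10 p and −log10 q columns had lost their names to a spreadsheet error and were taken in the order MACS2 writes them. The deposited peak lengths and summit positions are in bp. Depth per sample is unknown, since the lists give no read totals.

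Genes, coding sequences and bases came from RefSeq's copy of TAIR10.1; every peak ended within its chromosome. Overlapping peaks of a library were merged to measure cover. Strength was that of the strongest peak over the coding sequence, chosen after HB22 was seen to reach into its neighbour's peak. RY cores were sought on both strands within 100 bp of summits, and overlapping matches were counted separately. Coding sequences were aligned pairwise. Python 3.11.15, numpy 2.4.6, pandas 2.3.3 and Biopython 1.88 were used, and figures were drawn with matplotlib 3.10.9. In simulated peaks over 600 genes the calls recovered 200 of 200 gained and 200 of 200 lost genes with 0 false calls. That was a check of the code only. It gives no accuracy for the gained and lost calls in the deposited lists, where some covers lay at the threshold and replicates differed.

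The genes and lists were chosen with earlier results of these data known. All 10 genes, the other family and mini zinc finger genes, genes sharing a peak or nearest to a flanking summit, and the 3 genes most like HB30 are named. Separate plants are not stated for the replicates in the labels, and their spread may be technical. Calls were repeated with other cover thresholds, peak thresholds, peak numbers, regions and windows, and without each replicate. Coordinates are 1-based.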

Additional observations from a re-analysis of the deposited data

How the results depend on the processing

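The 9 genes marked in val1val2 stayed between 7 and 9 under every alternative, and leaving out a replicate gave 9 to 9. Each count requires its call in both libraries or lists. Leaving out a replicate can therefore raise a count but not lower it, and is no check against a fall. The wild-type count of 6 ran between 6 and 7 without a replicate. It came to 1, HB21, at a −log10 q of at least 10, where the gained count of 3 came to 6 (HB23, HB25, HB30, HB31, HB33 and HB34). The gained count ran between 3 and 4 without a replicate; without wild-type replicate 2, whose cover of HB22 was 20.6%, HB22 was the fourth. The lost count of 1 (HB27) ran between 1 and 1 without a replicate. It came to 0 at 50% cover, at a −log10 q of at least 2, at a −log10 q of at least 10, and with 1 kb upstream added. The VAL1-GFP count of 8 came to 2 and 1 at a −log10 q of at least 2 and 10, and ran between 8 and 9 with 1 list. It came to 7, without HB31, where summits of both lists had to lie within 100 bp. The VAL2-GFP count of 7 came to 2 at a −log10 q of at least 10. RY cores lay at 12 VAL1-GFP summits within 50 bp and at 18 within 200 bp. Of 90 alternatives for the cover differences of the 10 genes, 67 moved the value by less than the spread between replicates and 23 by more. The 67 include every case with a replicate left out. Leaving out 1 of 2 replicates cannot shift a mean by more than their spread, so those cases show no stability. HB22 came to −5.03 percentage points at a −log10 q of at least 10, against 21.4 as deposited, and HB33 to −18.8 with 1 kb upstream added, against 15.6. The coding sequence as region was chosen after seeing the data. No paired analysis was possible because the results come from no test. The unknown depth limits what a missing peak shows.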
